A study of Mus musculus with 15 samples.

Results

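Interferon-stimulated genes were examined in the kidneys of 15 male C57BL/6 mice, through 38 listed genes (among them Ifit1, Isg15, Oas1a, Ddx58 and Bst2). Of these, 34 were among the 13940 genes with an annotated transcript in every deposited file. The list was chosen by the measured FPKM of Ifit1, which is low in these Ang II and Ang II + QDG kidneys, so the Ifit1 values are a description and carry no test, and the counts of differences between groups below are over the other genes. The 38 genes and the further lists below were chosen with earlier results of these data known, so these counts are not free of that choice. Wild-type mice, 8 weeks old at purchase, carried a subcutaneous osmotic pump for 28 days and were gavaged daily. The 5 Control mice received saline by pump and water by gavage. The 5 Ang II mice received angiotensin II, a vasoconstrictor peptide that raises blood pressure, at 500 ng/kg/min and water by gavage. The 5 Ang II + QDG mice received the same infusion and Qingda granule (QDG), a Chinese herbal formula, at 1.145 g/kg/d by gavage. QDG alone was not given to any group here, so its values without Ang II are not known. RNA of kidney tissue was depleted of ribosomal RNA and sequenced, and the authors' methods also name a kit that isolates poly(A) RNA. The values are FPKM (fragments per kilobase of transcript, scaled to sequencing depth), summed over the transcripts of a gene. In such bulk tissue, fewer cells of a type and less RNA per cell cannot be told apart.

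Interferons are secreted proteins that cells release when they sense foreign or misplaced nucleic acid. Type I interferons bind a receptor that activates the kinases JAK1 and TYK2, and the transcription factor complex ISGF3, which holds STAT2 and IRF9, then binds the interferon-stimulated response element in the promoters of these genes. The products block viral translation, degrade RNA, attach the ubiquitin-like protein ISG15 to other proteins, or feed back on the pathway. A low level of these transcripts is present in most tissues without infection.

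Of the 34 genes listed in all 15 files, 31 reached 1 FPKM in at least 5 mice, and tests are given for the 30 of them other than Ifit1. Dhx58, Zbp1 and Xaf1 were under that limit. Irf7, Oas1g and Oas2 were listed in the Control files only, and Oas3 in none. The deposited files list a transcript only where a group mean is high enough: the lowest mean of a transcript found only in the Control files was 0.500 FPKM, and of transcripts in the other files the larger of the Ang II and Ang II + QDG means was never under 0.500 FPKM. Of the 34 genes, 25 had a single transcript in every file. All 10 markers of kidney epithelium were listed, with summed levels of 3581 to 4643 FPKM per mouse, and 0 of 4 markers of the adrenal cortex were. Renin (Ren1), which Ang II infusion is known to lower, had a log2 fold change of −0.18 in Ang II vs. Control (limma, adjusted p = 0.718), so it gave no check of the group labels.

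The promoter letters are shown because ISGF3 reads them. RefSeq promoter windows on GRCm38.p6 were found for 29 of the 38 genes. The 250 bases before each start were searched on both strands for the interferon-stimulated response element written as GAAA, any 2 bases and GAAA again (TTTC, any 2 bases and TTTC when read on the other strand), and overlapping matches were all counted, since neighbouring copies share a GAAA. A match was found for 11 of the 29 genes (37.9%), Ifit1 included, and for 936 of all 27025 genes with a window (3.46%). The matches and 10 bases on either side of them, or as far as the start, are printed on the strand of the gene with the motif in capitals, for Ifit1, for 4 genes that fell in Ang II vs. Control and for Stat2 and Rsad2, which did not pass that test.
Ifit1, chr19:34640775-34640823, + strand: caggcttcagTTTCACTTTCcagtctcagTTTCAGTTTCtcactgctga
Ifit3, chr19:34583363-34583426, + strand: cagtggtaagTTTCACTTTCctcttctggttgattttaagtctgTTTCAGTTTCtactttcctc
Isg15, chr4:156200865-156200906, − strand: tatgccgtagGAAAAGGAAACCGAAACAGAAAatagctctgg
Oas1a, chr5:120907526-120907555, − strand: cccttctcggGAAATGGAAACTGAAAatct
Bst2, chr8:71537577-71537612, − strand: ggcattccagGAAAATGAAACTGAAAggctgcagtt
Stat2, chr10:128270266-128270295, + strand: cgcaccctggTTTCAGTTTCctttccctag
Rsad2, chr12:26456553-26456582, − strand: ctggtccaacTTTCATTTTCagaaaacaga
The Isg15 stretch holds 3 overlapping copies, from 78 to 57 bases before the start, and the Ifit1 stretch holds 2 separate ones, from 104 to 76 bases before it. The stretch of Ifit3b, chr19:34607759-34607822, has the same letters as that of Ifit3. The Oas1a and Oas1g stretches share the motif and the bases before it. The match is a description of letters, not of a bound factor.

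The first question was whether the other genes were low, as Ifit1 was, after Ang II. In Ang II vs. Control, 12 of the 30 tested genes fell at an adjusted p under 0.05 (limma, Benjamini-Hochberg adjustment over all 12372 genes), against 0.994% of all genes tested, and 0 rose, against 4.95% of all genes. These 12 were Ifit3, Oas1a, Isg15, Usp18, Dtx3l, Parp14, Ifih1, Ddx58, Eif2ak2, Bst2, Ifi27 and Lgals3bp. The fitted difference was below 0 for 28 of the 30 genes, against 35.2% of all genes, and Trim25 and Ifi35 were the other two. The median log2 fold change of the 30 genes was −0.53, and that of all genes was 0.08. Without adjustment, at p under 0.05, 18 were lower (4.83% of all genes) and 0 were higher (17.9% of all genes). All Ang II mice were below all Control mice in 6 of the 30 genes (1.42% of all genes) and above them in 0 (6.49% of all genes). The count of 12 depended on which mice were kept: it was 5 without Control 1, 6 without Ang II 2, 7 without any 1 of Control 2, Control 4, Ang II 3, Ang II 4 and Ang II 5, and 14 without Control 5. Ddx58, Dtx3l, Ifi27, Ifih1 and Ifit3 fell in every one of the 15 fits that left out 1 mouse. The call was lost in 13 of these fits for Eif2ak2 (limma adjusted p up to 0.0966), in 11 for Oas1a (up to 0.1005), in 8 for Parp14, in 7 each for Usp18 and Bst2, in 2 for Isg15 and in 1 for Lgals3bp. After quantile normalization 14 of the 30 fell, among 268 lower and 227 higher of all genes, where the values as deposited gave 123 lower and 612 higher. Mitochondrial transcripts were 18.55% to 20.7% of the summed FPKM in the Control mice, 15.4% to 16.02% in the Ang II mice, which lay below all Control mice, and 16.95% to 19.8% in the Ang II + QDG mice. Scaled to the annotated sum outside the mitochondrial genome, the values gave the same 12 genes.

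**Figure D1:**
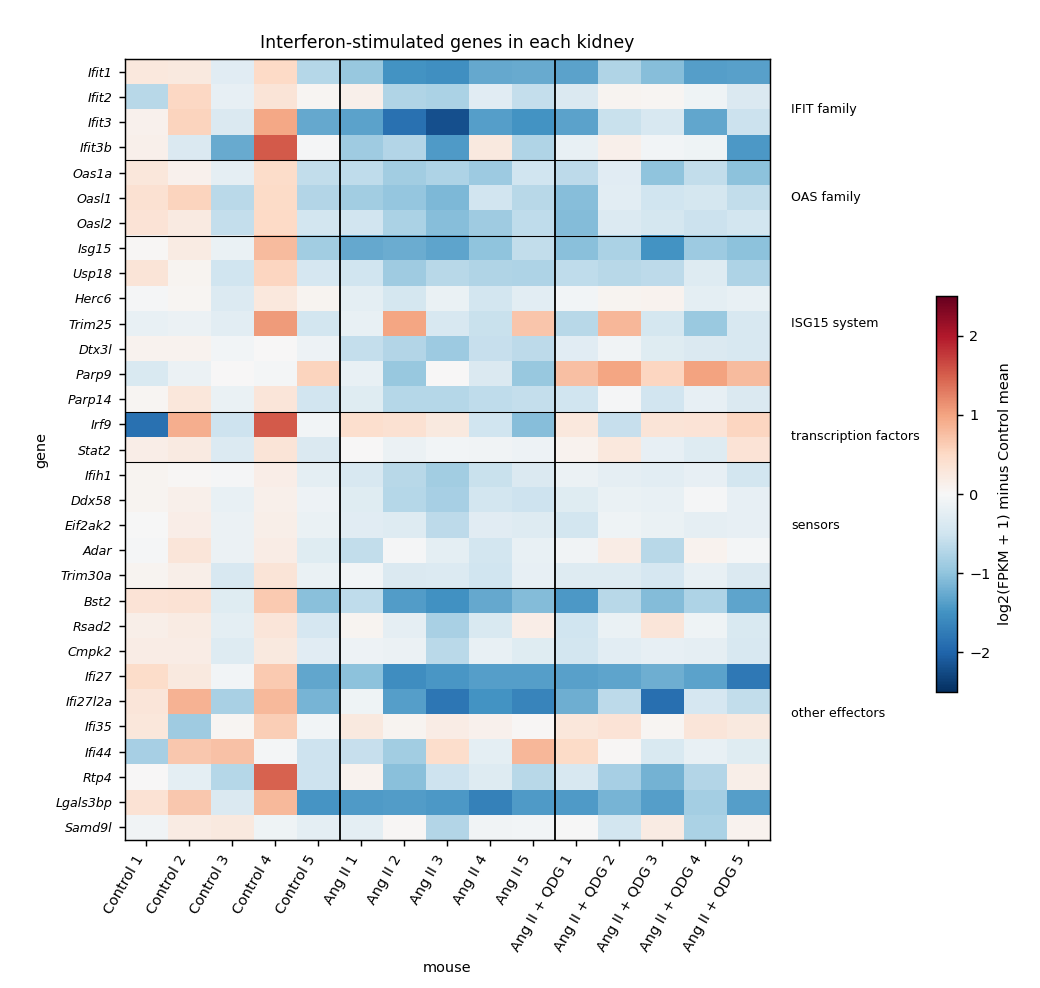
Each cell is the log2(FPKM + 1) of 1 gene in 1 mouse minus the mean of that gene in the 5 Control mice, for the 31 genes that entered the filter, ordered by role. The Ang II columns are mostly blue, Control 4 is mostly red and Control 5 has the blue of the Ang II columns in Ifit3, Bst2, Ifi27 and Lgals3bp.

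The IFIT family are RNA-binding proteins that recognise viral RNA ends and hold back translation, and their genes lie side by side on chromosome 19. In the order of mice 1 to 5, which is kept throughout, Ifit1 (ENSMUSG00000034459, chromosome 19, 34640871 to 34650009 on GRCm38) had Control values of 6.08, 5.99, 3.82, 7.33 and 2.57, Ang II values of 2.07, 1.08, 1.05, 1.43 and 1.45, and Ang II + QDG values of 1.34, 2.48, 1.82, 1.27 and 1.31 FPKM. All 5 Control mice were above all 5 Ang II mice, and Control 5 was the nearest to them. The mean differed from Control by −1.30 on the log2 scale after Ang II and by −1.18 with QDG added, and the Ang II + QDG mean was 31.9% of the Control mean, next to 27.4% in Ang II. Ifit3 had Control values of 13.1, 18.4, 9.28, 24.9 and 4.41, Ang II values of 4.18, 2.61, 1.87, 4.04 and 3.68, and Ang II + QDG values of 4.204, 8.0, 8.94, 4.38 and 8.101 FPKM. No Ang II mouse reached the lowest Control mouse, and Ifit3 fell from 14.02 ± 7.95 to 3.28 ± 0.999 FPKM (SD, n = 5 each; limma log2 fold change −1.66 with a standard error of 0.36, adjusted p = 0.0184). Ifit2 had Control values of 2.08, 6.14, 3.32, 5.24 and 4.11, Ang II values of 4.46, 1.94, 1.87, 3.07 and 2.29, and Ang II + QDG values of 2.87, 4.19, 4.14, 3.61 and 2.85 FPKM. Its groups overlapped, with Ang II 1 above 3 of the Control mice, and the test was not passed (limma log2 fold change −0.46 with a standard error of 0.23, adjusted p = 0.248). Ifit3b ranged from 0.152 to 7.83 FPKM, with the highest value in Control 4 (log2 fold change −0.71, limma adjusted p = 0.387). Of the 50-base stretches of the Ifit3 transcript, 51.2% occur in Ifit3b as well, so the split of reads between this pair is uncertain.

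The OAS family sense double-stranded RNA and make the messenger that activates RNase L, and the OAS-like genes are their relatives. Oas1a (chromosome 5, 120896256 to 120907521) had Control values of 3.68, 3.15, 2.29, 4.34 and 1.54, Ang II values of 1.51, 1.13, 1.26, 1.07 and 1.74, and Ang II + QDG values of 1.45, 2.17, 0.939, 1.52 and 0.909 FPKM. Control 5 lay within the Ang II values and the other Control mice lay above them. Oas1a fell from 3.0 ± 1.11 to 1.34 ± 0.277 FPKM (SD, n = 5 each; limma log2 fold change −0.73 with a standard error of 0.19, adjusted p = 0.0416), with the limit that 57.6% of its 50-base stretches are shared with Oas1g, which the Control files list at 0.329 to 0.952 FPKM. The Oas1a call was lost in 11 of the 15 fits that left out 1 mouse (limma adjusted p up to 0.1005). Oasl2 had Control values of 4.9, 4.47, 2.09, 5.61 and 2.42, Ang II values of 2.38, 1.72, 1.23, 1.54 and 1.998, and Ang II + QDG values of 1.22, 2.71, 2.44, 2.25 and 2.396 FPKM. The difference was as large as that of Oas1a (limma log2 fold change −0.77 with a standard error of 0.22, adjusted p = 0.0509) and missed the threshold. Oasl1 had Control values of 2.57, 3.03, 0.727, 2.84 and 0.644, Ang II values of 0.509, 0.411, 0.255, 0.973 and 0.691, and Ang II + QDG values of 0.316, 1.29, 0.938, 1.03 and 0.805 FPKM. The Control mice were split in Oasl1, with Control 1, 2 and 4 at 2.57 to 3.03 FPKM and Control 3 and 5 within the Ang II range (limma log2 fold change −0.83 with a standard error of 0.26, adjusted p = 0.0788).

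ISG15 is a ubiquitin-like protein that is attached to newly made proteins. USP18 removes it and also shuts off the type I interferon receptor, HERC6 is the ligase that attaches it in mice, and TRIM25 is a ubiquitin ligase of RNA sensing. Isg15 (chromosome 4, 156199424 to 156200818) had Control values of 6.08, 7.06, 5.22, 10.99 and 2.802, Ang II values of 1.87, 1.94, 1.77, 2.45 and 3.52, and Ang II + QDG values of 2.35, 3.01, 1.46, 2.68 and 2.42 FPKM. Every Control mouse except Control 5 was above all Ang II mice, and Isg15 fell from 6.43 ± 2.999 to 2.31 ± 0.728 FPKM (SD, n = 5 each; limma log2 fold change −1.09 with a standard error of 0.25, adjusted p = 0.0228). Usp18 had Control values of 3.49, 2.74, 1.54, 4.19 and 1.67, Ang II values of 1.52, 0.94, 1.23, 1.12 and 1.09, and Ang II + QDG values of 1.32, 1.22, 1.27, 1.88 and 1.097 FPKM. The lowest Control mouse stood just above the highest Ang II mouse, and Usp18 fell (limma log2 fold change −0.72 with a standard error of 0.18, adjusted p = 0.0318). Herc6 ranged from 0.948 to 1.99 FPKM in Control and from 0.792 to 1.21 FPKM in Ang II (limma adjusted p = 0.127). Trim25 had Control values of 7.47, 7.68, 6.98, 19.1 and 5.999, Ang II values of 7.505, 18.2, 6.26, 5.54 and 14.5, and Ang II + QDG values of 4.92, 16.1, 6.097, 4.08 and 6.27 FPKM. The high values of Trim25 belonged to single mice of each group, Control 4, Ang II 2, Ang II 5 and Ang II + QDG 2, and no difference was detectable between Ang II and Control beside that spread (limma log2 fold change 0.11 with a standard error of 0.39, adjusted p = 0.907).

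DTX3L is a ubiquitin ligase that works in a complex with PARP9, and PARP14 is an ADP-ribosyltransferase; their genes are neighbours on chromosome 16. Dtx3l (chromosome 16, 35926511 to 35939151, − strand) had Control values of 4.17, 4.19, 3.66, 3.93 and 3.43, Ang II values of 2.23, 1.93, 1.58, 2.26 and 2.098, and Ang II + QDG values of 3.02, 3.58, 2.95, 2.78 and 2.69 FPKM. The 3 groups did not overlap, except that Ang II + QDG 2 was above Control 5. Dtx3l fell from 3.88 ± 0.3297 to 2.02 ± 0.279 FPKM in Ang II (SD, n = 5 each; limma log2 fold change −0.69 with a standard error of 0.09, adjusted p = 0.00392). Parp14 (chromosome 16, 35832874 to 35871544) had Control values of 3.26, 4.04, 2.69, 4.09 and 1.96, Ang II values of 2.34, 1.53, 1.501, 1.67 and 1.71, and Ang II + QDG values of 1.93, 3.06, 1.98, 2.56 and 2.19 FPKM. Control 5 was below Ang II 1 and every other Control mouse was above all Ang II mice, and Parp14 fell (limma log2 fold change −0.59 with a standard error of 0.15, adjusted p = 0.0369). Parp9 (chromosome 16, 35938470 to 35972605, + strand) had Control values of 1.598, 2.02, 2.4, 2.26 and 3.93, Ang II values of 1.96, 0.743, 2.397, 1.62 and 0.751, and Ang II + QDG values of 4.698, 5.704, 3.901, 5.73 and 4.82 FPKM. Control and Ang II overlapped in Parp9 (limma log2 fold change −0.48 with a standard error of 0.21, adjusted p = 0.183), and all 5 Ang II + QDG mice were above all Ang II mice. Dtx3l and Parp9 overlap by 682 bases on opposite strands, and the kit named in the labels is not a strand-marking one, so reads from that overlap cannot be told apart.

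**Figure D2:**
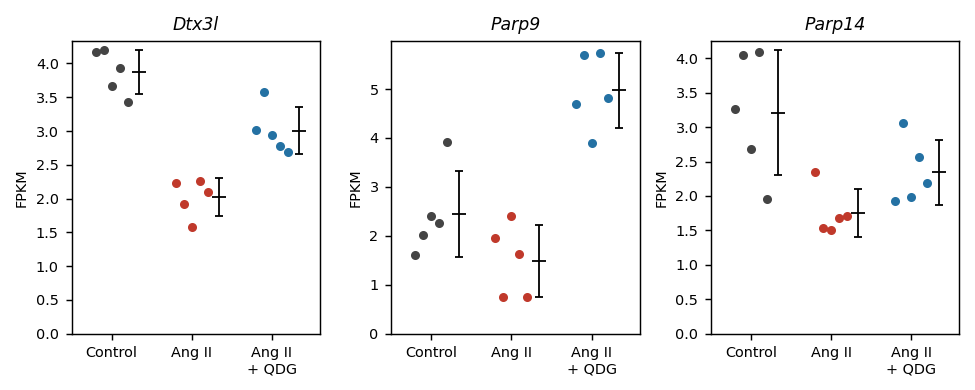
FPKM of Dtx3l, Parp9 and Parp14 in each mouse, with the mean and SD of each group (n = 5) as the black bar beside the points. Dtx3l in Ang II + QDG lay at 2.69 to 3.58 FPKM, above all Ang II mice and, except for mouse 2, below all Control mice, and Parp9 in Ang II + QDG lay at 3.90 to 5.73 FPKM, above all Ang II mice.

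RNA sensors of the cytosol, MDA5 (Ifih1) and RIG-I (Ddx58), detect double-stranded RNA and start interferon production, PKR (Eif2ak2) stops translation when it binds such RNA, and ADAR edits it. Ifih1 (chromosome 2, 62595798 to 62646255) had Control values of 3.63, 3.504, 3.31, 3.898 and 2.702, Ang II values of 2.34, 1.72, 1.42, 1.97 and 2.402, and Ang II + QDG values of 2.99, 2.75, 2.66, 2.81 and 2.19 FPKM. No Ang II mouse reached the lowest Control mouse, and Ifih1 fell from 3.41 ± 0.449 to 1.97 ± 0.415 FPKM (SD, n = 5 each; limma log2 fold change −0.58 with a standard error of 0.11, adjusted p = 0.0123). Ddx58 (chromosome 4, 40203773 to 40239828) had Control values of 10.2, 10.6, 8.38, 10.6 and 8.85, Ang II values of 7.68, 5.55, 4.98, 6.82 and 6.44, and Ang II + QDG values of 7.62, 8.53, 8.401, 9.496 and 8.26 FPKM. Control and Ang II did not overlap here either, and Ddx58 fell (limma log2 fold change −0.56 with a standard error of 0.10, adjusted p = 0.0104). Eif2ak2 had Control values of 5.58, 6.43, 4.97, 6.25 and 4.87, Ang II values of 4.43, 4.26, 3.19, 4.43 and 4.29, and Ang II + QDG values of 3.77, 5.12, 4.84, 4.62 and 4.701 FPKM. The Control mice were all above the Ang II mice, of which Ang II 3 was the lowest, and Eif2ak2 fell (limma log2 fold change −0.37 with a standard error of 0.10, adjusted p = 0.0473). Adar had Control values of 4.95, 6.403, 4.47, 5.83 and 3.89, Ang II values of 2.96, 4.95, 4.103, 3.38 and 4.32, and Ang II + QDG values of 4.704, 5.86, 2.72, 5.44 and 4.85 FPKM, with overlapping groups and no difference past the test (limma log2 fold change −0.30 with a standard error of 0.17, adjusted p = 0.315). Trim30a ranged from 1.66 to 3.404 FPKM in Control and from 1.48 to 2.34 FPKM in Ang II (limma adjusted p = 0.189). In all, 3 of the 5 tested sensor genes fell (0.994% of all genes), of which Eif2ak2 lost its call in 13 of the 15 fits without 1 mouse.

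Other effectors of the response, with no direct part in RNA sensing, included the genes with the highest FPKM. Bst2 encodes tetherin, which holds budding virus at the cell surface, and had Control values of 37.3, 38.02, 23.4, 46.96 and 13.6, Ang II values of 18.5, 10.5, 9.67, 11.4 and 13.4, and Ang II + QDG values of 10.2, 17.7, 13.3, 16.7 and 11.2 FPKM. The Control mice other than Control 5 were above all Ang II mice. Bst2 (chromosome 8, 71534255 to 71537456) fell from 31.9 ± 13.2 to 12.7 ± 3.51 FPKM (SD, n = 5 each; limma log2 fold change −1.18 with a standard error of 0.28, adjusted p = 0.0284). Ifi27, a small hydrophobic protein of cell membranes (chromosome 12, 103434211 to 103440239), had Control values of 72.8, 61.95, 50, 82.7 and 20.8, Ang II values of 25.1, 17.1, 18.5, 19.5 and 19.4, and Ang II + QDG values of 19.7, 20.4, 21.9, 20.1 and 14.5 FPKM. Control 5 was within the Ang II range and the other 4 Control mice were at 50 to 82.7 FPKM, while the Ang II mice reached 25.1 FPKM. Ifi27 fell from 57.6 ± 23.95 to 19.9 ± 3.06 FPKM (SD, n = 5 each; limma log2 fold change −1.36 with a standard error of 0.28, adjusted p = 0.01599).

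Lgals3bp, a secreted glycoprotein that binds galectin-3 (chromosome 11, 118392751 to 118402092), had Control values of 96.04, 120.3, 57.97, 131 and 26.1, Ang II values of 27.3, 27.7, 27.1, 22.4 and 27.5, and Ang II + QDG values of 27.5, 32.7, 28.2, 40.7 and 27.98 FPKM. It was the most abundant by mean FPKM of the 34 listed genes in Control, spread over the widest range there, and it lay at 22.4 to 27.7 FPKM in the Ang II mice, next to Control 5. Lgals3bp fell from 86.3 ± 43.8 to 26.4 ± 2.23 FPKM (SD, n = 5 each; limma log2 fold change −1.47 with a standard error of 0.33, adjusted p = 0.0227). The sum is made of 2 transcripts. ENSMUST00000144529 was at or near 0 in Control 1, Control 3 and Ang II + QDG 2, and at 16.4 to 102.6 FPKM in the other mice, while ENSMUST00000043722 was at 96.0, 58.0 and 32.7 FPKM in those 3 mice. Taken by its most abundant transcript alone, Lgals3bp gave no fall (log2 fold change 0.82, limma adjusted p = 0.797).

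Samd9l, an antiviral and growth-restraining factor, had Control values of 34.3, 41.8, 43.2, 33.4 and 30.6, Ang II values of 30.6, 36.9, 21.4, 33.9 and 34.5, and Ang II + QDG values of 36.1, 26.3, 42.05, 20.7 and 38.95 FPKM. It was as abundant as Bst2 in Control, and its groups overlapped almost fully (limma log2 fold change −0.22 with a standard error of 0.19, adjusted p = 0.526). Rsad2, the antiviral enzyme viperin, had a log2 fold change of −0.24 (limma adjusted p = 0.534), and its neighbour Cmpk2, a mitochondrial nucleotide kinase, had −0.29 (limma adjusted p = 0.227). Ifi27l2a ranged from 8.90 to 39.1 FPKM in Control and from 5.27 to 19.6 FPKM in Ang II, where the highest value was that of Ang II 1 (log2 fold change −1.28, limma adjusted p = 0.102). Rtp4, Ifi35 and Ifi44 had limma adjusted p-values of 0.464, 0.762 and 0.921. Of the 10 genes of this group, 3 fell (0.994% of all genes).

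Of the transcription factors that carry the interferon signal, Irf9 and Stat2 were tested here and neither passed. Irf9 had Control values of 0.322, 8.09, 2.37, 12.8 and 3.63, Ang II values of 5.45, 5.29, 4.67, 2.42 and 1.32, and Ang II + QDG values of 4.82, 2.24, 5.003, 5.096 and 5.95 FPKM. Its Control mice covered a range wider than that of both other groups (limma log2 fold change −0.10 with a standard error of 0.52, adjusted p = 0.934). Stat2 had Control values of 3.15, 3.36, 1.93, 3.62 and 1.88, Ang II values of 2.75, 2.33, 2.56, 2.51 and 2.39, and Ang II + QDG values of 2.97, 3.43, 2.23, 1.97 and 3.67 FPKM, with every Ang II mouse inside the Control range (limma log2 fold change −0.08 with a standard error of 0.16, adjusted p = 0.804). Irf7, the factor that amplifies type I interferon production, was listed in the Control files only, where its 4 transcripts had 0.340 to 2.35 FPKM per mouse. Its Ang II and Ang II + QDG values are not known here, and no fold is given. Of the genes under the limit of the test, Zbp1, a sensor of Z-form nucleic acid, had group means of 1.18 ± 0.504, 0.224 ± 0.241 and 0.613 ± 0.339 FPKM, with Control first and Ang II + QDG last. Xaf1, which promotes apoptosis, had 1.302 ± 0.713, 0.328 ± 0.377 and 0.626 ± 0.213 FPKM in the same order, and Dhx58 (LGP2, a regulator of RIG-I and MDA5) had 0.941 ± 0.481, 0.527 ± 0.232 and 0.582 ± 0.139 FPKM (SD, n = 5 each).

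**Figure D3:**
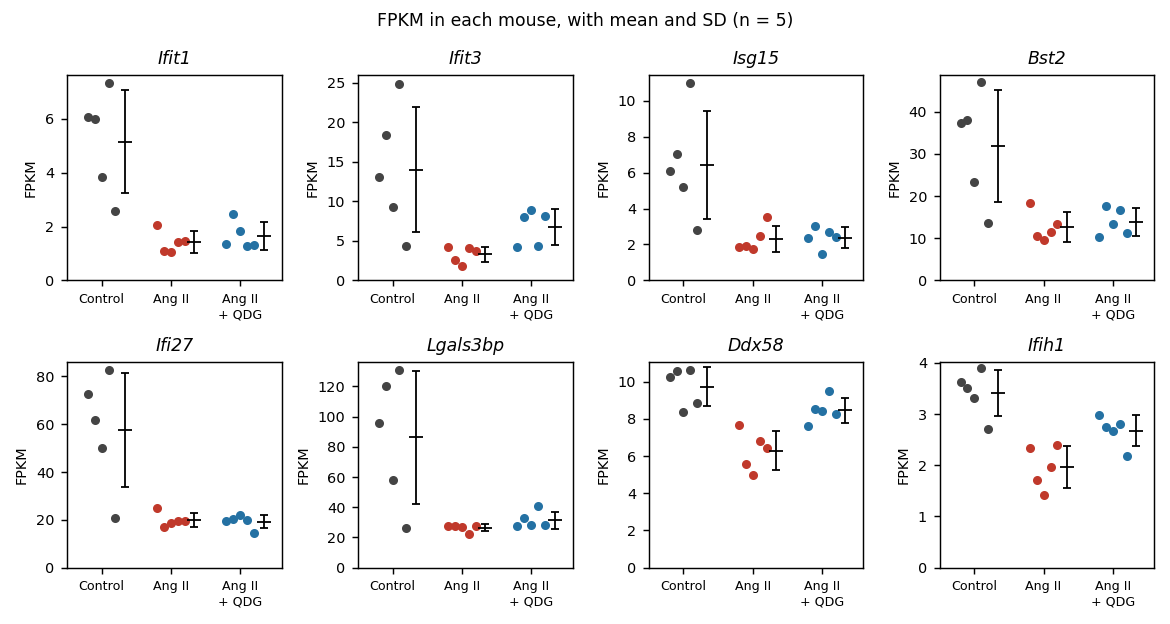
FPKM of 8 genes in each mouse, with the mean and SD of each group (n = 5) as the black bar. Control 5 is the lowest Control point of every panel except Ddx58, where Control 3 is lower, and in Ddx58 and Ifih1 the Ang II + QDG points stand higher than most Ang II points.

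The second question was whether QDG given with Ang II moved these genes. In Ang II + QDG vs. Ang II, 2 of the 30 genes rose, Parp9 and Dtx3l (limma, adjusted p under 0.05; 0.525% of all genes rose), and 0 fell (1.29% of all genes fell). Parp9 rose from 1.495 ± 0.736 to 4.97 ± 0.767 FPKM (SD, n = 5 each; limma log2 fold change 1.30 with a standard error of 0.21, adjusted p = 0.0135), and it kept this call without any 1 of the mice. Dtx3l rose from 2.02 ± 0.279 to 3.004 ± 0.349 FPKM (limma log2 fold change 0.41 with a standard error of 0.09, adjusted p = 0.0372), and it lost the call in 9 of the 15 fits that left out 1 mouse, among them every fit without an Ang II + QDG mouse (adjusted p up to 0.0917). Ddx58 had limma log2 fold change 0.38 with a standard error of 0.10, adjusted p = 0.0727, Ifih1 had limma log2 fold change 0.32 with a standard error of 0.11, adjusted p = 0.163 and Ifit3 had limma log2 fold change 0.83 with a standard error of 0.36, adjusted p = 0.259, all under an unadjusted p of 0.05. At that unadjusted level 5 genes were higher (6.01% of all genes) and 0 were lower (10.4% of all genes). The 5 Ang II + QDG mice did not overlap the 5 Ang II mice, on the higher side, for Ifit3, Dtx3l and Parp9, which are 3 of 30 (1.56% of all genes), and on the lower side for 0 (3.44% of all genes).

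The 12 genes that fell in Ang II vs. Control had log2 fold changes of Ang II + QDG vs. Ang II from −0.05 for Ifi27 to 0.83 for Ifit3, whose fitted fall after Ang II was the largest of the 30. Ifit3 had an Ang II mean of 23.4% and an Ang II + QDG mean of 47.97% of the Control mean. The log2 fold change of Ang II + QDG vs. Ang II was 0.04 for Isg15, 0.12 for Bst2, 0.02 for Oas1a, 0.11 for Usp18 and 0.23 for Lgals3bp, and with Ifi27 these had standard errors of 0.18 to 0.33 and limma adjusted p-values of 0.790 to 0.978. It was 0.28 for Parp14 and 0.13 for Eif2ak2 (limma adjusted p = 0.3898 and 0.559). Ifi27l2a, Oasl1 and Oasl2, which did not pass in Ang II vs. Control, had 0.33, 0.25 and 0.20 (limma adjusted p-values of 0.687 to 0.776). For Ifit1 it was 0.13. The median over the 30 genes was 0.16, next to −0.02 over all genes, and 25 of the 30 fitted differences were above 0. The 5 below 0 (53.7% of all genes were below 0) were Trim25, Trim30a, Cmpk2, Ifi27 and Rtp4. Both comparisons use the same 5 Ang II mice.

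The third comparison was between Ang II + QDG and Control. At an adjusted p under 0.05 (limma) 0 of the 30 genes were lower and 0 were higher, where 0.0323% and 0.097% of all genes were. At an unadjusted p under 0.05, 15 were lower (3.72% of all genes) and Parp9 alone was higher (10.7% of all genes). The 15 included Ifi27 (limma log2 fold change −1.41 with a standard error of 0.28, adjusted p = 0.0691), Isg15 (limma log2 fold change −1.06 with a standard error of 0.25, adjusted p = 0.0964), Lgals3bp (limma log2 fold change −1.24 with a standard error of 0.33, adjusted p = 0.129) and Bst2 (limma log2 fold change −1.06 with a standard error of 0.28, adjusted p = 0.129). Without Control 5 these same 4 genes passed the adjusted threshold, with adjusted p-values of 0.00053, 0.0328, 0.012 and 0.0338 by limma. Control 5 was the lowest Control mouse in all 4, so leaving it out raises the Control mean and narrows the Control spread by itself. The share of all genes that passed in that fit is not given here, and these calls add no support. The Ang II + QDG mean was 33.5% of the Control mean for Ifi27, 37.05% for Isg15, 36.5% for Lgals3bp and 43.4% for Bst2. It was 86.9% for Ddx58, 78.6% for Ifih1 and 77.5% for Dtx3l. The median log2 fold change over the 30 genes was −0.31, next to 0.06 over all genes, and 26 of the 30 were below 0 (37.5% of all genes). The groups overlapped in all 30 genes, where 0.857% of all genes had Ang II + QDG mice entirely below Control and 2.78% entirely above.

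**Figure D4:**
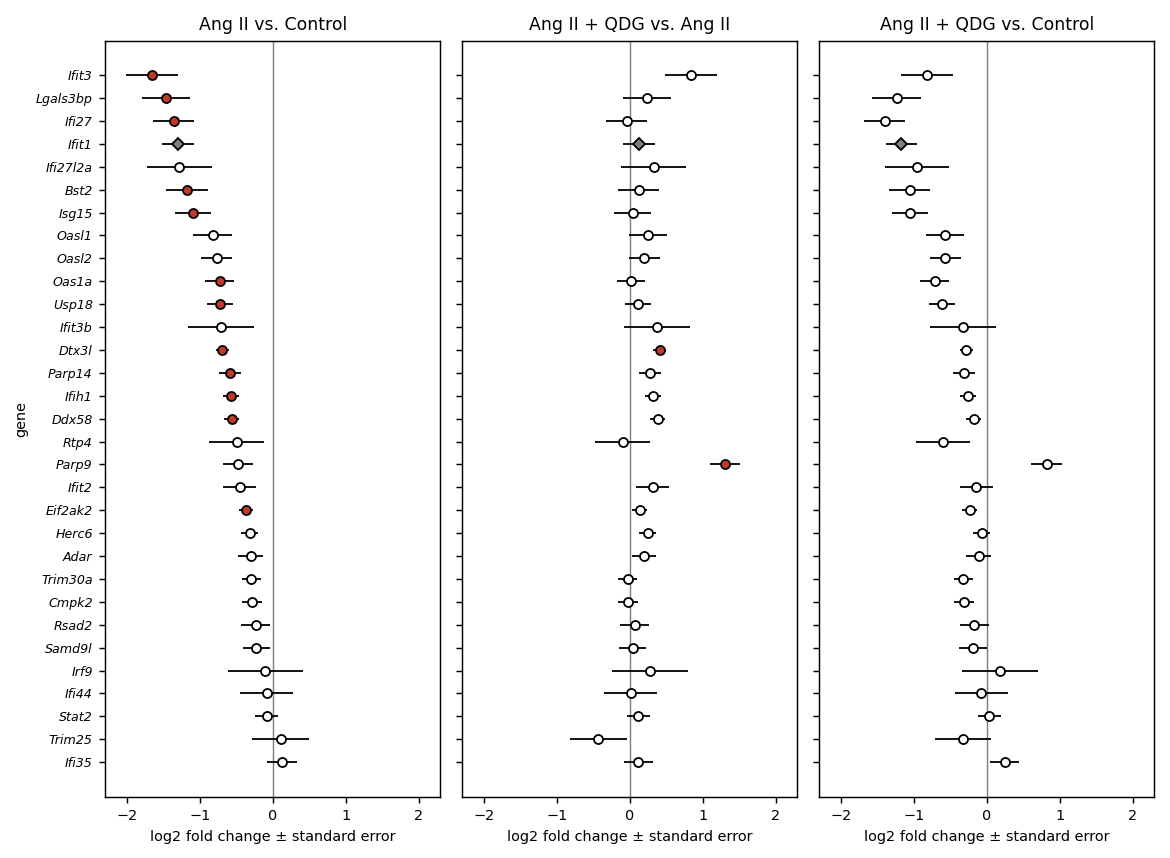
Fitted log2 fold change with its standard error for 31 genes in the 3 comparisons, in the order of the first. Filled red points passed an adjusted p under 0.05 (limma), open points did not, and the grey diamond is Ifit1, which was not tested. The first panel has 12 red points below 0, the second has Dtx3l and Parp9 above 0, and the third has none.

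The Control mice differed among themselves in the same genes. A level per mouse was taken as the mean over the 30 genes of log2(FPKM + 1) minus the Control mean of each gene. It was 0.00, 0.21, −0.28, 0.51 and −0.44 in Control 1 to 5, −0.41, −0.66, −0.76, −0.59 and −0.54 in Ang II 1 to 5, and −0.47, −0.24, −0.45, −0.36 and −0.43 in Ang II + QDG 1 to 5. Control 5 was thus lower than Ang II 1 and than 3 of the Ang II + QDG mice. The means were −0.59 ± 0.13 after Ang II and −0.39 ± 0.095 with QDG added, and the SD in Control was 0.38 (n = 5 each). Control 4 was the highest Control mouse for 21 of the 30 genes (20.4% of all genes), and Control 5 was the lowest for 17 of the 30 (23.9% of all genes). Control 5 was above the whole Ang II range for 9 of the 30 genes (12.4% of all genes) and within it for 19 (55.9% of all genes), while Control 4 was above it for 27 (12.9% of all genes).

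The rest of the pathway was read from lists of its parts. None of the 13 interferon genes, type I, II and III, was listed in every file. Of 20 receptor and signalling genes tested, among them Ifnar1, Jak1 and Tyk2, 0 passed the adjusted threshold in any comparison (limma), with a median log2 fold change of 0.07 in Ang II vs. Control and 3 genes higher at p under 0.05 without adjustment (17.9% of all genes). Of 13 genes of nucleic acid sensing upstream of interferon, 0 passed in any comparison, which for 13 genes is also near those shares of all genes. In this list 2 were lower after Ang II at p under 0.05 without adjustment (4.83% of all genes). A further 29 interferon-stimulated genes gave 2 that fell in Ang II vs. Control (0.994% of all genes), 0 that rose (4.95% of all genes), and a median of −0.16. Phf11d fell from 1.92 to 0.575 FPKM (limma log2 fold change −0.89, adjusted p = 0.00742), and Ifi204, a DNA sensor, fell from 2.39 to 1.01 FPKM (limma log2 fold change −0.73, adjusted p = 0.0216).

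Genes led by interferon-gamma, the type II interferon, were read as a separate list. Of 14 tested, 7 fell in Ang II vs. Control at an adjusted p under 0.05 (limma; 0.994% of all genes) and 14 were below 0 (35.2% of all genes), with a median log2 fold change of −0.86. The 4 with the smallest p were Tgtp1, Tgtp2, Irgm2 and Cxcl10. Tgtp1 and Tgtp2, near-identical GTPases that attack vacuoles of parasites, fell from 5.83 to 1.81 and from 5.19 to 1.58 FPKM (log2 fold changes −1.25 and −1.25). Irgm2, another GTPase of that family, fell from 9.10 to 4.35 FPKM (log2 fold change −0.91). Cxcl10, a chemokine that draws T cells, fell from 4.32 to 1.49 FPKM (log2 fold change −1.06) and had 1.61 FPKM in Ang II + QDG. The summed level of the 14 genes was 91.7, 109.9, 76.7, 111.7 and 56.4 FPKM in Control 1 to 5, 49.7, 39.6, 31.5, 46.9 and 46.3 FPKM in Ang II, and 48.8, 72.2, 50.6, 55.4 and 47.2 FPKM in Ang II + QDG. Here too Control 5 was the lowest Control mouse, and it stayed above every Ang II mouse. In Ang II + QDG vs. Ang II and vs. Control, 0 of the 14 passed the adjusted threshold, with 1 higher (6.01% of all genes) and 8 lower (3.72% of all genes), respectively, at an unadjusted p under 0.05. At the adjusted threshold 1.29% of all genes fell and 0.525% rose vs. Ang II, and 0.0323% fell and 0.097% rose vs. Control.

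**Figure D5:**
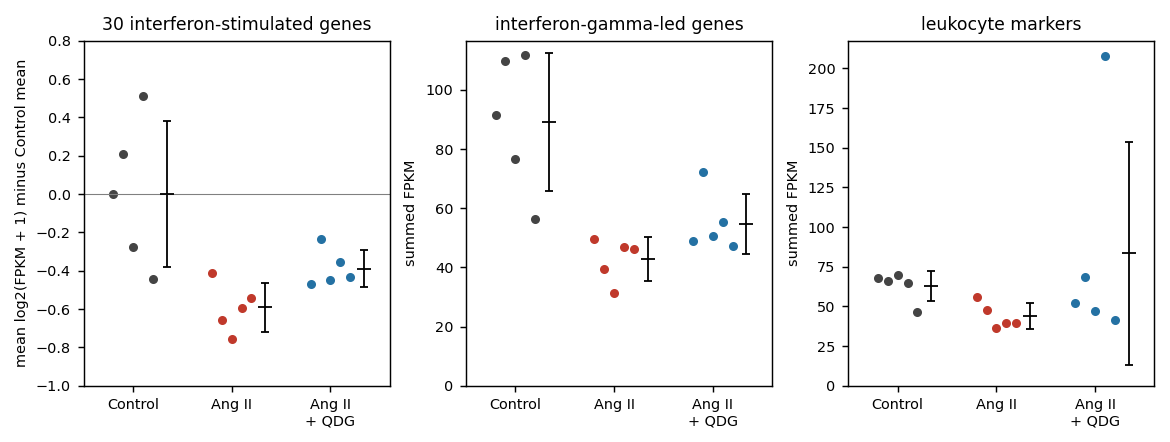
The first panel plots the level of the 30 genes in each mouse (mean log2(FPKM + 1) minus the Control mean), and the others plot the summed FPKM of the interferon-gamma-led genes and of the leukocyte markers, with the mean and SD of each group (n = 5) as the black bar. Control 5 is the lowest Control mouse in all 3 panels, and Ang II + QDG 4 stands apart in leukocyte markers at 207.7 FPKM.

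Markers of leukocytes, which express many interferon-stimulated genes, were fitted lower after Ang II without passing the test. Of 23 markers 12 were listed in every file, and the T cell, B cell and plasmacytoid dendritic cell markers Cd3e, Cd3d, Cd4, Cd8a, Cd79a, Ms4a1 and Siglech were not among them. The summed level was 46.4 to 69.7 FPKM in Control, with Control 5 the lowest, 36.6 to 56.1 FPKM in Ang II, and 41.4 to 207.7 FPKM in Ang II + QDG. All 9 markers tested were below 0 in Ang II vs. Control (35.2% of all genes; median log2 fold change −0.42), 0 passed the adjusted threshold by limma (0.994% of all genes fell and 4.95% rose), and 1 was lower at an unadjusted p under 0.05 (4.83% of all genes). In Ang II + QDG vs. Ang II 0 of the 9 were below 0 (53.7% of all genes; median 0.35), 0 passed the adjusted threshold by limma (1.29% of all genes fell and 0.525% rose), and 1 was higher at an unadjusted p under 0.05 (6.01% of all genes). Their part in the differences of the interferon-stimulated genes in either comparison was not tested. The summed erythroid markers were 544.6 to 1362 FPKM in Control, 1115 to 1943 FPKM after Ang II and 1557 to 2818 FPKM with QDG added, those of 4 adipocyte markers were 25.1 to 174.2 FPKM over the 15 mice, and 3 of 9 endothelial markers rose in Ang II vs. Control (4.95% of all genes). The part of blood, fat or vessel content was not tested either.

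The promoter letters were set beside the calls. Of the 12 genes that fell in Ang II vs. Control, 9 had a promoter window and 4 of these held the motif (Ifit3, Oas1a, Isg15 and Bst2, printed above), while Dtx3l, Ifih1, Ddx58, Eif2ak2 and Lgals3bp had no such letters in the 250 bases. Of the 18 tested genes that did not pass, 15 had a window and 4 held the motif, among them Stat2 and Rsad2.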

How the data were processed

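RNA-seq was run on kidney tissue of 15 mice, 5 per group, from 1 μg of ribosomal RNA-depleted RNA, and the authors' methods also name a poly(A) isolation kit. Each file deposited by the authors holds 1 value for every transcript it lists, whose unit the sources used here do not name. It was taken as FPKM, because 98.45% to 98.7% of values under 200 reads, times transcript length, were whole multiples of 1 constant per mouse (within 0.05 reads). This implies 75035000 to 81329000 fragments in Control, 70698000 to 79292000 in Ang II and 68923000 to 76143000 in Ang II + QDG, and a median of 142 fragments per mouse for Isg15 and 2458 for Lgals3bp. The submitters' processing notes name mm10 and limma. The aligner is not given in the sources used here. Deposited FPKM were normalized by the authors for length and depth.

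Transcript IDs were matched to GENCODE M21 (GRCm38, the same build); 31254 of 31301 matched. Transcripts assembled by the authors (11141 in all files) have no gene name and were not used. FPKM of the 28871 annotated transcripts in all 15 files were summed per gene, genes reaching 1 FPKM in 5 or more mice were kept, and log2(FPKM + 1) was fitted with limma 3.58.1 (R 4.3.3; 1 mean per group, trended eBayes, 12 residual degrees of freedom, two-sided, Benjamini-Hochberg over 12372 genes). The pseudocount of 1 makes fold changes of low genes smaller. The fit was checked on simulated data. The labels name groups but no replicate numbers, so numbers follow the order of the samples, and nothing says more than that the samples are separate mice. No pair of files was identical. The 38 genes and all lists were chosen with earlier results of these data known. Values in each mouse are given for genes that passed the adjusted threshold in any comparison, for the 3 of each role with the highest mean FPKM, and for Ifit1; 22 genes were named by this rule, and the other genes, Rsad2 included, are given in short. Shared 50-base stretches were counted against all GENCODE M21 transcripts. Alternatives were a pseudocount of 0.1, no filter, quantile normalization, median scaling, scaling to the annotated sum outside the mitochondrial genome, unlisted transcripts as 0, the most abundant transcript, and leaving out each mouse.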

Additional observations from a re-analysis of the deposited data

Results flagged for a closer look

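Each group of 5 mice was examined for a single mouse far from the other 4 (Dixon's ratio of the gap to the range above its 95% critical value), in 34 genes, Ifit1 included, with 3 groups each. This gave 10 of 102, next to 9.02% over all genes in the same files, where chance gives about 1 in 20 for normally distributed values.

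Control 4 was far above the other Control mice in Ifit3b (7.83 FPKM, others 0.280 to 2.33), Trim25 (19.1 FPKM, others 5.999 to 7.68) and Rtp4 (8.15 FPKM, others 1.03 to 2.299). Among the Ang II mice, Ang II 1 was high in Parp14 (2.34 FPKM, others 1.501 to 1.71) and Ifi27l2a (19.6 FPKM, others 5.27 to 7.49). Ang II 4 was high in Ifit3b (2.62 FPKM, others 0.152 to 0.845) and low in Lgals3bp (22.4 FPKM, others 27.1 to 27.7). Ang II 3 was low in Eif2ak2 (3.19 FPKM, others 4.26 to 4.43). In Ang II + QDG, mouse 2 was high in Trim25 (16.1 FPKM, others 4.08 to 6.27) and mouse 4 in Usp18 (1.88 FPKM, others 1.10 to 1.32). Control 5 was not far from the other Control mice in any of the 34 genes by this measure.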

How the results depend on the processing

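Of the 12 genes that fell in Ang II vs. Control, 7 passed when each gene was read from its most abundant transcript, where 84 of all genes fell and 269 rose. Eif2ak2, Oas1a, Parp14 and Usp18 lost the call although they have 1 transcript in all files. Their values were unchanged, and only the spread shared between genes and the adjustment differed. Lgals3bp was 0.82 (Ang II vs. Control) and 0.16 (Ang II + QDG vs. Control) on the log2 scale in that fit. The 5 alternatives in pseudocount, filter and scaling gave 12 to 14. Leaving out 1 mouse gave 5 to 14 in Ang II vs. Control, 1 to 3 between Ang II + QDG and Ang II, and 0 to 4 between Ang II + QDG and Control. Counting unlisted transcripts as 0 gave 16 between Ang II and Control, and 2 between Ang II + QDG and Control (Ifi27 and Irf7). This setting puts 0 outside Control for every transcript listed in the Control files only, which include all those of Irf7 and some of Ifi27, Oasl2, Xaf1 and Zbp1, so these counts are partly built in and are no result. Without the filter on low values Eif2ak2 lost its call. No gene of the 30 rose in Ang II vs. Control under any alternative. Over all genes, 123 fell and 612 rose in Ang II vs. Control. With quantile normalization 268 fell and 227 rose, and with median scaling 270 and 200. Between Ang II + QDG and Ang II, 159 fell and 65 rose, and with quantile normalization 97 each. Between Ang II + QDG and Control, 4 fell and 12 rose, with median scaling 12 and 8. The median of the 30 genes ranged from −0.73 to −0.38 in Ang II vs. Control, from 0.12 to 0.21 between Ang II + QDG and Ang II, and from −0.40 to −0.22 between Ang II + QDG and Control. Single genes were followed under the alternatives only in the 39 gene and comparison pairs with an unadjusted p under 0.05 (limma) in the main fit. Of these values, 767 kept their direction and side of the threshold, 63 lost and 16 gained a call, and 2 reversed. Many of the 39 pairs had no call in the main fit and so had none to lose, and the 767 are no measure of how firm the calls were. Some tested genes rest on few fragments in their lowest mouse (Ifit3b on 19, Irf9 on 43, Oasl1 on 44 and Rtp4 on 49). The groups were made of separate mice, so no paired analysis applied.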
